A study of Mus musculus with 6 samples.

Results

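The genes described are 9 transcription factors that set epithelial against mesenchymal identity in many tissues: Grhl1, Grhl2, Grhl3, Ovol1, Ovol2, Zeb1, Zeb2, Snai1 and Snai2. They are 9 of 49315 genes in the deposited count table, matched by symbol, and each symbol had 1 row. The set was chosen by family and by a pattern measured in these same libraries, in which Grhl3 and Ovol2 go from near silence in Control oocytes to clear expression in oocytes lacking Rpa1. The difference between the genotypes is therefore given for these genes as a description. They were part of the fit across all genes, but a call in that fit is no evidence for genes picked this way.

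RNA was sequenced from fully grown germinal vesicle oocytes, which are arrested in meiotic prophase with an intact nucleus. The 3 Control mice and the 3 Rpa1 OcKO mice (a conditional knockout of Rpa1 specific to the oocyte) were 4 to 5 weeks old, and all had been primed with PMSG, a gonadotropin that drives follicle growth. Each library is 1 mouse and holds about 20 oocytes stripped of cumulus cells. The titles number the mice 1 to 3 in each group, used here as replicate numbers. Not given in the sources used here are the genotype of the Control mice, the Cre driver and the strain. In bulk RNA of pooled oocytes, fewer cells carrying a transcript and less transcript per cell cannot be told apart.

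Grainyhead-like (GRHL) proteins bind DNA as dimers and switch on junction, barrier and protease-inhibitor genes of epithelia, and GRHL3 is best known for closure of the neural tube and formation of the skin barrier. OVO-like proteins (OVOL1 and OVOL2) are zinc finger repressors that keep epithelial cells epithelial, in part by repressing Zeb1. ZEB and SNAI proteins are zinc finger repressors that act in the opposite sense: they silence Cdh1, the gene of E-cadherin, through E-boxes and drive epithelial-to-mesenchymal transition (EMT).

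The promoters of the genes with the highest OcKO to Control ratios are shown first, with that of Snai1, which like them was highest in OcKO replicate 1. RefSeq promoter windows (GRCm38.p6, from 250 bases before to 50 after a transcription start) were found for 5 of the 9 genes. The stretches below run 5′ to 3′ on the strand of the gene, from 150 bases before the start site through the first 30 bases of the transcript. They lie at chr4:135573603-135573782 (minus strand, Grhl3), chr2:144331333-144331512 (minus strand, Ovol2) and chr2:167538045-167538224 (plus strand, Snai1). Capitals mark the E-box bound by SNAI and ZEB proteins, CAGGTG read on either strand.
Grhl3: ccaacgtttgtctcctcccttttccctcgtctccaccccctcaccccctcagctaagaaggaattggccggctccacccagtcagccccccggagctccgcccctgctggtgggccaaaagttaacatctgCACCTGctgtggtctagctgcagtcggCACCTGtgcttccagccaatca
Ovol2: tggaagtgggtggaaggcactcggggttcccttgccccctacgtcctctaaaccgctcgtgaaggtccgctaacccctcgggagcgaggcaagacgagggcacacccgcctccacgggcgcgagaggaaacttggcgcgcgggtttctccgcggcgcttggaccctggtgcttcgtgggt
Snai1: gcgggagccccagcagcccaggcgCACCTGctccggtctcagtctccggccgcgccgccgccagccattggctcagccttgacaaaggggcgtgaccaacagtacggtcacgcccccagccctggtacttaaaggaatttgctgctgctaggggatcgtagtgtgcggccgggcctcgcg

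The Grhl3 window held 2 such E-boxes, beginning at positions -19 and 9 counted from the start site, where position 1 is the first transcribed base. The Snai1 window held 1, at position -126, and the Ovol2 window held 0. Of all 32851 RefSeq promoter windows of the same length, 20.2% held at least 1 and 2.88% at least 2. A grainyhead motif (AACNGGTT, searched on the strand of the gene only) occurs in 1.15% of windows. That share leaves out matches on the other strand, so it cannot be set beside shares counted on both strands. An OVO motif (CCGTTA, both strands) occurs in 2.76% and a p53 half-site in 8.36%. None of these 3 motifs was found, as searched, in the Grhl3, Ovol2 and Snai1 windows. That says only that these letters are not in these windows, and for grainyhead only on the strand of the gene. No motif is contained in another. The windows of Grhl1 and Zeb2, the other genes with a window, held 0 E-boxes, no OVO motif and no grainyhead motif on the strand of the gene. In overlapping windows of Zeb2 a p53 half-site began at position -76 or -102, and those of Grhl1 held none. The RefSeq start of Grhl3 lies 2 bases from the gene start of the deposited annotation, that of Snai1 0 bases and that of Ovol2 784 bases, so the Ovol2 window may not be the start used in these oocytes.

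Levels are counts-per-million (CPM) scaled by TMM, edgeR's correction for differences in library composition, and 1 count is worth 0.0224 to 0.0276 CPM before that scaling. Fold changes are those of edgeR, given on the log2 scale with a standard error (SE), and are positive where OcKO is higher.

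Grhl3 went from almost no reads to a moderate level. Its gene (ENSMUSG00000037188) lies on chromosome 4 from 135541888 to 135573630 on the minus strand of GRCm38. The 3 Control libraries held 0, 0 and 1 counts, and the OcKO libraries held 1197, 696 and 478. On the CPM scale OcKO replicates 1 to 3 stood at 27.3, 15.3 and 11.7 (18.1 ± 8.16, SD, n = 3), while the 0 counts of Control replicates 1 and 2 allow up to 0.0826 and 0.079 CPM. The groups did not overlap, and the single Control read lay in replicate 3. Summed over each group and corrected for library size, the counts gave a ratio of 1990 with an exact 95% counting interval of 356 to 78459. That interval covers the counting error of reads only and leaves out differences between mice. Amplified reads that carry no molecular identifier are also not separate molecules. The fitted log2 fold change of 10.51 depends on the small value added to each count: the difference of mean log2 CPM was 8.19 with a prior count of 2 and 9.83 with 0.5.

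Ovol2 had the same form and a wider spread. This gene (ENSMUSG00000037279) lies on chromosome 2 from 144305175 to 144332146, minus strand. Control held 0, 0 and 2 counts, and OcKO held 3150, 297 and 824, that is 71.8, 6.52 and 20.2 CPM (32.9 ± 34.4, SD, n = 3). OcKO replicate 1 was far above the others, yet the lowest OcKO library was still far above every Control library. The scaled ratio of summed counts was 1790 (exact 95% counting interval 495 to 14772, which again leaves out differences between mice). The fitted log2 fold change was 10.57 (SE 1.47) with all libraries, 9.25 without OcKO replicate 1 and 13.41 without Control replicate 3, which held the 2 Control counts. For Grhl3 the same value was 12.54 without Control replicate 3. Over its exons Ovol2 shares 359 bases with 1700108N11Rik on the opposite strand, which had 0 counts in Control and a mean of 0.0605 CPM in OcKO. Exons of Grhl2, Ovol1, Zeb1 and Zeb2 also overlap those of other genes, by 4 to 690 bases, and none of these genes had a group mean above 0.347 CPM. The library kit does not mark strand, so reads from such shared exons cannot be assigned.

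**Figure D1:**
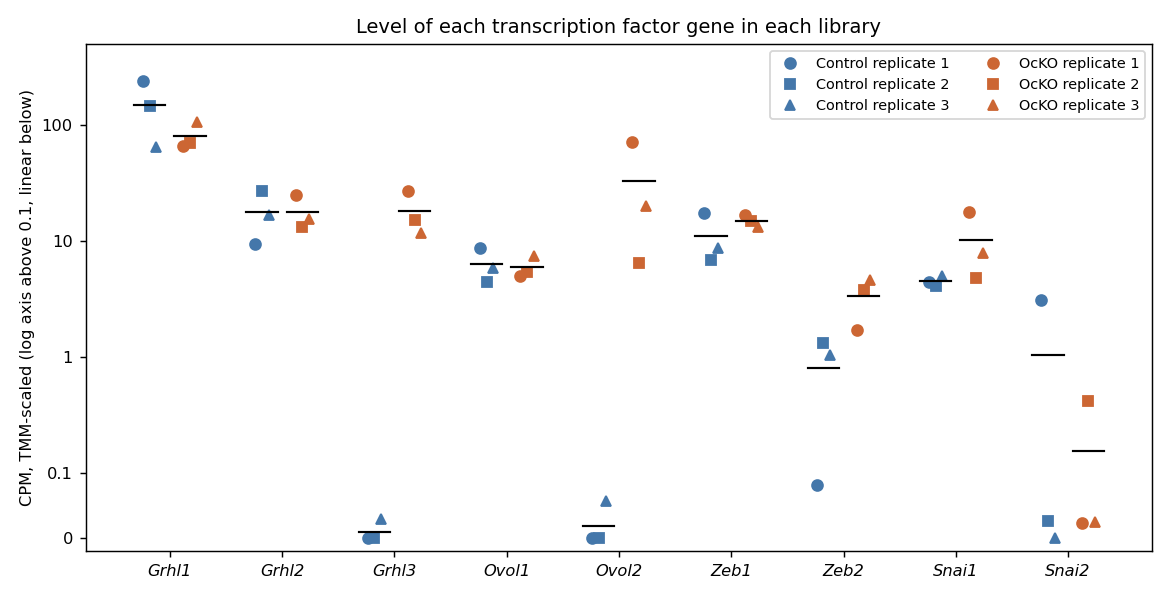
TMM-scaled CPM (vertical axis, logarithmic above 0.1 and linear below) of each gene in each of the 3 Control (blue) and 3 OcKO (orange) libraries; marker shapes are replicates and black bars are group means. Grhl3 and Ovol2 sit at 0 to 0.0576 CPM in Control and at 6.52 to 71.8 CPM in OcKO, while Grhl1, Grhl2, Ovol1, Zeb1 and Snai1 overlap between the groups.

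The other grainyhead genes were present in Control oocytes. Grhl1 (ENSMUSG00000020656, chromosome 12, 24572287 to 24617391, plus strand), which in skin helps to maintain desmosomes, stood at 239, 147 and 65.1 CPM in Control replicates 1 to 3. In OcKO it stood at 66.4, 69.6 and 106 CPM. The Control libraries spanned a wider range (coefficient of variation 57.8%) than the OcKO libraries (27.2%), and the groups overlapped through Control replicate 3. The log2 fold change was -0.90 (SE 0.45), and -0.40 without Control replicate 1. Across tested genes with a mean of at least 5 CPM, the median coefficient of variation was 25.1% in Control and 28.4% in OcKO.

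Grhl2 (ENSMUSG00000022286, chromosome 15, 37233036 to 37363569, plus strand), a regulator of epithelial junction genes in the embryo, had nearly the same mean in both groups. Control mice gave 9.45, 27.1 and 16.8 CPM (17.8 ± 8.84, SD, n = 3) against 25.1, 13.3 and 15.7 CPM in OcKO mice (18.0 ± 6.26). The OcKO libraries all lay inside the Control range, with a log2 fold change of 0.02 (SE 0.49) that ran from -0.30 to 0.49 when 1 library was left out.

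Ovol1 (ENSMUSG00000024922, chromosome 19, 5549137 to 5560575, minus strand), the paralog of Ovol2 that acts in epidermal differentiation and in spermatogenesis, was low in all libraries. It stood at 8.73, 4.48 and 5.93 CPM in Control and 5.04, 5.44 and 7.51 CPM in OcKO. The groups overlapped, with a log2 fold change of -0.09 (SE 0.58). Its sign depended on single libraries: it was 0.20 without Control replicate 1, 0.02 without OcKO replicate 1 or 2 and -0.28 without OcKO replicate 3. It was 0.09 with library size as the only scaling, under which all tested genes shifted by 0.17 at the median.

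Expression per exon length puts the paralogs on one scale. In Control, Grhl1 made up 97.5%, 89.5% and 85.9% of the summed grainyhead level in replicates 1 to 3, and Grhl3 at most 0.0476%. In OcKO, Grhl3 made up 29.4%, 19.7% and 11.3%. The summed level itself overlapped between the groups, at 70.0, 46.9 and 21.7 CPM per kb in Control and 33.3, 27.8 and 37.3 CPM per kb in OcKO. For the OVO genes, Ovol2 went from 0%, 0% and 1.31% of the pair in Control to 95.1%, 62.2% and 78.7% in OcKO. The summed OVO level was 1.54 to 3.01 CPM per kb in Control and 4.96 to 35.7 CPM per kb in OcKO, without overlap.

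**Figure D2:**
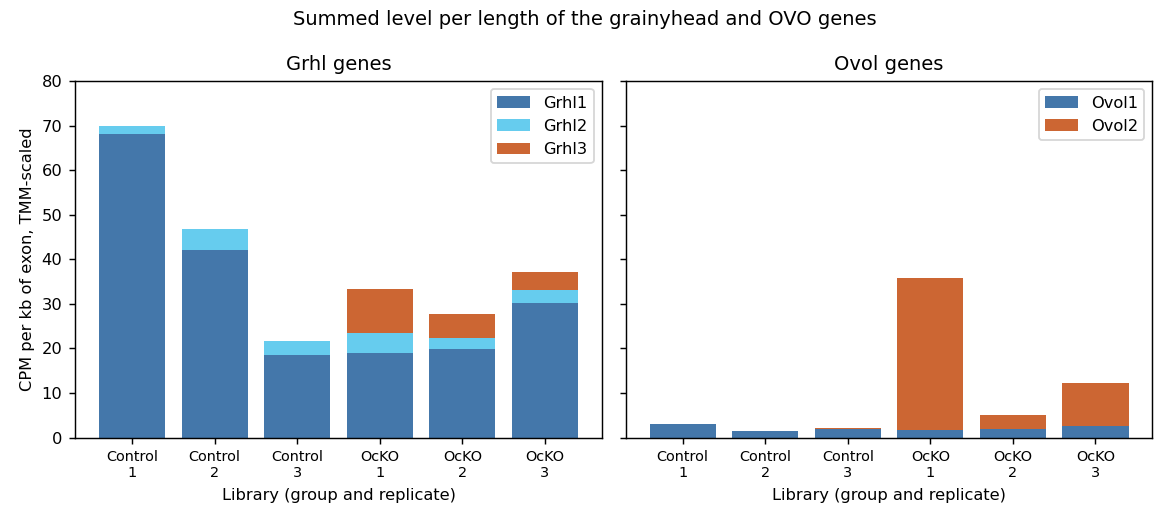
Stacked bars of TMM-scaled CPM per kb of exon for Grhl1, Grhl2 and Grhl3 (left) and Ovol1 and Ovol2 (right) in each library, with no error bars since each bar is 1 library. Grhl3 makes up 11.3% to 29.4% of the grainyhead bar in OcKO, and Ovol2 makes up 62.2% to 95.1% of the OVO bar.

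Among the opposing factors, Zeb1 is the repressor that OVOL proteins are best known to restrain. Zeb1 (ENSMUSG00000024238, chromosome 18, 5591860 to 5775467, plus strand) stood at 17.5, 6.93 and 8.75 CPM in Control and 17.0, 14.8 and 13.4 CPM in OcKO. Control replicate 1 was the highest of the 6, so the groups overlapped, and the log2 fold change was 0.45 (SE 0.47), or 0.94 without that library. The OcKO libraries were close together (coefficient of variation 12.1%, against 51.3% in Control).

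Zeb2 (ENSMUSG00000026872, chromosome 2, 44983632 to 45117395, minus strand), known for neural crest and brain development, was near the lower end of what was tested. Control held 3, 50 and 36 counts (0.0826, 1.32 and 1.04 CPM) and OcKO 76, 174 and 190 counts (1.73, 3.82 and 4.66 CPM). All OcKO libraries lay above all Control libraries, with a log2 fold change of 2.07 (SE 1.13). Without Control replicate 1 it was 1.52. The lowest OcKO library and the highest Control library differed by less than the OcKO libraries did among themselves.

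Snai1 (ENSMUSG00000042821, chromosome 2, 167538195 to 167542814, plus strand), the founding repressor of E-cadherin in EMT, was even in Control and uneven in OcKO. Control held 4.46, 4.14 and 4.98 CPM (coefficient of variation 9.4%) and OcKO 17.8, 4.81 and 7.85 CPM (67.0%). OcKO replicate 2 fell within the Control range and replicate 1 stood far above it. The log2 fold change was 1.17 (SE 0.64) and 0.48 without OcKO replicate 1. OcKO replicate 1 was the highest library for Grhl3, Ovol2 and Snai1 alike.

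Snai2 (ENSMUSG00000022676, chromosome 16, 14705852 to 14709395, plus strand), which acts in neural crest and mesenchyme, was detected mainly in 1 library. Control mice gave 113, 1 and 0 counts, and OcKO mice 1, 19 and 1. It did not pass the filter on low counts and has no fitted value. The higher Control mean of 1.05 CPM rests on replicate 1, with 3.11 CPM.

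Of the 9 genes, 8 passed the filter on low counts, which Grhl3 and Ovol2 did only through the OcKO libraries. For completeness, the fit across all genes called 0.137% of the 16060 tested genes higher, 1 of them from this set (Grhl3), and 0.00623% lower, 0 of them from this set. Every OcKO library was above every Control library for 3 of the 8 (Grhl3, Ovol2 and Zeb2), against 10.7% of tested genes, and below for 0, against 8.7%. These counts come from the contrast that picked the genes, so nothing is read from them, and Grhl3 was not called in any of the 6 fits without 1 library. For scale, 214 tested genes had at most 3 Control counts in all, and 18 of these (0.112% of tested genes) had at least 5 CPM in every OcKO library.

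**Figure D3:**
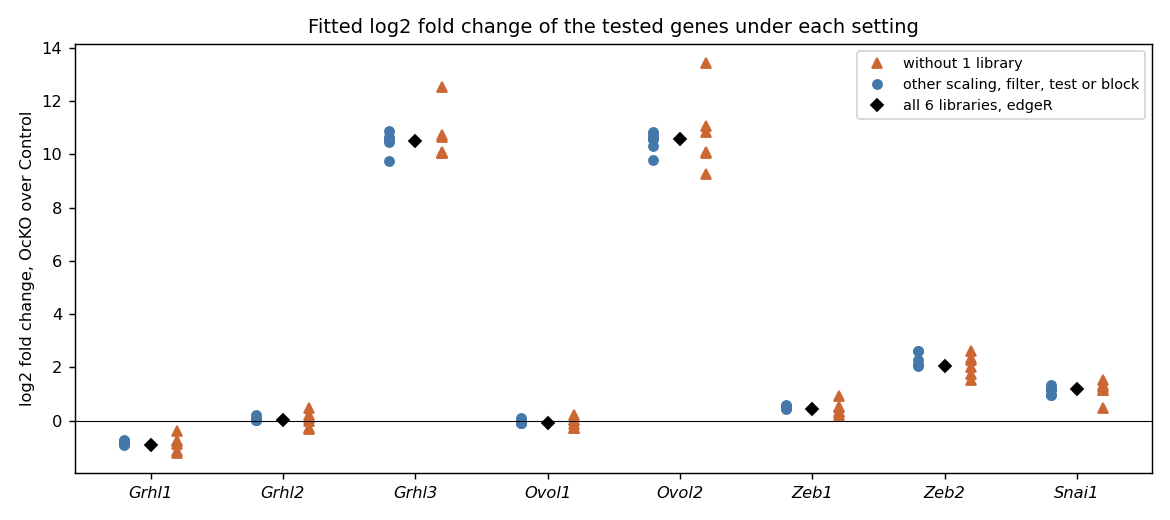
Fitted log2 fold change (vertical axis) of the 8 tested genes with all 6 libraries (black diamonds), under other scalings, filters, tests or a block (blue circles) and without 1 library (orange triangles). Grhl3 stays between 9.75 and 12.54 and Ovol2 between 9.25 and 13.41, while Grhl2 and Ovol1 have values on both sides of 0.

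Ordered by mean CPM per kb, Grhl1 led in both groups, at 42.9 ± 24.8 in Control and 23.0 ± 6.26 in OcKO (SD, n = 3). In Control it was followed by Grhl2 (3.23), Snai1 (2.79), Ovol1 (2.20), Zeb1 (1.10), Snai2 (0.515), Zeb2 (0.0407), Ovol2 (0.00908) and Grhl3 (0.00344). Only the step from Grhl1 to Grhl2 separated all libraries in Control, and every other pair of neighbours overlapped. In OcKO the order was Grhl1, Ovol2 (15.5), Grhl3 (6.49), Snai1 (6.26), Grhl2 (3.27), Ovol1 (2.07), Zeb1 (1.49), Zeb2 (0.171) and Snai2 (0.0762). There the steps from Ovol1 to Zeb1 and from Zeb1 to Zeb2 separated all libraries, and the other neighbours overlapped. Ovol2 thus moved from the eighth to the second place and Grhl3 from the ninth to the third.

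Likeness to other genes was measured by Pearson's r of log2 CPM over the 6 libraries, among 9677 tested genes with a mean of at least 5 CPM in a group. With 2 groups of 3 libraries, any gene that differs between the genotypes gives a high r, so these values are a description. Grhl3 and Ovol2 had an r of 0.98 with each other. Among the genes most like Grhl3 were Specc1 (r = 1.000), Hrh1, the histamine H1 receptor (0.998), Mcam, a cell adhesion molecule (0.997), and Trap1a (0.995). Specc1 stood at 21.0, 9.24 and 7.90 CPM in OcKO replicates 1 to 3 and had 0.0288 CPM in Control replicate 3 alone, the same order of libraries as Grhl3.

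The genes most like Ovol2 were H2-Q2, of the class I histocompatibility genes (r = 0.998), Plch2, a phospholipase C (0.998), Ms4a10 (0.996), Lrsam1, a ubiquitin ligase (0.996), and Rexo4 (0.996). Plch2 stood at 44.9, 7.84 and 16.0 CPM in OcKO and had 0.0576 CPM in Control replicate 3 alone. With a prior count of 0.5 in place of 2, Hrh1, Trap1a and Rexo4 left the top 5. For other genes of the set, the closest were Cep85l for Grhl1 (0.993), Prkd1 for Ovol1 (0.977), Acpp for Zeb1 (0.992) and Armc5 for Snai1 (0.989).

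Counts in the groups of genes below are to be set against all 16060 tested genes. Of these, 5.93% had higher and 5.21% lower values in OcKO at an unadjusted p under 0.05 by edgeR, DESeq2 calls were 2.99% higher and 1.71% lower, and those of limma voom 0% and 0.00623%.

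No gene next to these 9 on the chromosomes passed the test. Of 18 nearest named genes, 15 were tested and edgeR, DESeq2 and limma voom called 0, with 1 higher and 1 lower at an unadjusted p under 0.05 and a median log2 fold change of -0.30. The higher one was Ap5b1, 7.5 kb from Ovol1, with 1, 2 and 1 counts in Control against 45, 43 and 42 in OcKO (edgeR adjusted p = 0.120). The lower one was Rnf114, 22.0 kb from Snai1, with 1180 ± 131 CPM in Control against 865 ± 75.8 CPM in OcKO (adjusted p = 0.369). Beside Grhl3, Stpg1 lies 4.08 kb away and held 0, 0 and 52 counts in Control and 63, 90 and 292 in OcKO, an overlap on the CPM scale. Ifnlr1, 113 kb away, held at most 0.0275 CPM in Control and 2.07, 7.35 and 0 CPM in OcKO. Beside Ovol2, Mgme1 (23.9 kb, a mitochondrial nuclease) stood at 18.7, 4.35 and 16.4 CPM in Control and 21.6, 32.9 and 36.1 CPM in OcKO. Kat14 (36.8 kb, a subunit of a histone acetyltransferase complex) went the other way, from 229, 197 and 309 CPM to 95.1, 169 and 197 CPM. Neither passed the test (edgeR adjusted p = 0.496 for Mgme1 and 0.482 for Kat14).

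Known grainyhead target and partner genes of epithelia did not pass the test. Of 30 listed genes 20 were tested, and edgeR called 0. An unadjusted p under 0.05 was reached by 3 of the 20 with higher values in OcKO (5.93% over all tested genes) and 4 with lower values (5.21%). Limma voom called 0, and DESeq2 1 higher (Rab25). Their median log2 fold change was 0.57, against 0.01 for all tested genes, with 13 positive and 7 negative values. Rab25, an epithelial trafficking GTPase, stood at 3.42, 2.61 and 4.14 CPM in Control and 12.6, 9.37 and 12.5 CPM in OcKO. The groups did not overlap (1.76 on the log2 scale, SE 0.53, edgeR adjusted p = 0.252). Tjp3, a tight junction scaffold, held 0, 0 and 2 counts in Control and 475, 30 and 34 in OcKO, again with replicate 1 highest.

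Other listed targets were at lower values in OcKO, also without a call. Cgn, the tight junction protein cingulin, stood at 145 ± 4.81 CPM in Control against 98.2 ± 18.2 CPM in OcKO, an edgeR adjusted p of 0.327 (SD, n = 3). Myo5b, a trafficking motor, stood at 1030 ± 13.4 and 681 ± 170 CPM (adjusted p = 0.318). Cdh1 and Epcam, the usual epithelial surface markers, were picked after seeing their values. Cdh1, the target of ZEB and SNAI repression, was abundant in both groups, with 550, 307 and 467 CPM in Control against 284, 329 and 232 CPM in OcKO, with overlap (adjusted p = 0.398). Epcam went the other way and was close to background, at 0 to 0.518 CPM in Control against 0.615 to 2.18 CPM in OcKO. Its groups did not overlap (2.64 on the log2 scale, SE 1.62, edgeR adjusted p = 0.636).

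Of 24 other epithelial transcription regulators, 15 were tested and edgeR called 0, with 2 of 15 higher and 0 lower at an unadjusted p under 0.05 (5.93% and 5.21% over all tested genes) and a median log2 fold change of -0.29. DESeq2 called 2 higher, Lmo4 among them (2.99% over all tested genes), and limma voom called 0. Lmo4, a LIM-only cofactor and partner of GRHL3 in wound repair and neural tube closure, stood at 0.799, 3.21 and 0.806 CPM in Control and 7.43, 13.6 and 20.8 CPM in OcKO. The Lmo4 log2 fold change was 3.12 (SE 0.82, edgeR adjusted p = 0.190), or 4.15 without Control replicate 2, and the groups did not overlap. OcKO replicate 1 was the lowest for Lmo4, unlike Grhl3. Trp63, the p53 relative found in resting oocytes and basal epithelium and named after its values were seen, overlapped, with 24.5, 32.0 and 76.0 CPM in Control against 72.6, 44.9 and 34.3 CPM in OcKO.

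On the mesenchymal side, 11 of 20 listed genes were tested and edgeR called 0, with 1 of 11 higher (Col3a1) and 0 lower at an unadjusted p under 0.05 (5.93% and 5.21% over all tested genes) and a median log2 fold change of 0.05, which was -0.04 at a minimum of 5 CPM and 0.76 with limma voom. DESeq2 and limma voom called 0. Vim, the intermediate filament of mesenchyme and likewise named after its values were seen, was at 0.342 to 0.468 CPM in Control against 0.296 to 0.589 CPM in OcKO. Cdh2, N-cadherin, stood at 18.8 ± 5.76 and 9.44 ± 7.17 CPM, an edgeR adjusted p of 0.649 (SD, n = 3). Of the 11 tested, 7 had a positive and 4 a negative log2 fold change. Fn1 stood at 14.6 ± 6.06 and 23.1 ± 3.96 CPM, without overlap (edgeR adjusted p = 0.656). Col3a1 stood at 0.0651 ± 0.0451 and 0.740 ± 0.388 CPM (edgeR adjusted p = 0.237), and Sparc at 1.13 ± 0.999 and 2.34 ± 2.02 CPM, with overlap. Of 12 other EMT factors 6 were tested, with 0 called by any of the 3 tools and 0 at an unadjusted p under 0.05 by edgeR. Twist1, named after its values were seen, had 0 counts in all 6 libraries. Tcf4, an E protein that partners such factors, stood at 6.40 ± 5.28 CPM in Control against 0.892 ± 0.382 CPM in OcKO (edgeR adjusted p = 0.457). Of the 6 tested, 4 had a negative and 2 a positive log2 fold change. The positive ones were Gsc (1.68, SE 1.05) and Zfp217 (0.94, SE 0.79), both with overlap.

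Among 19 genes of the signals that govern EMT, 15 were tested and edgeR called 0, with 0 higher and 3 of 15 lower at an unadjusted p under 0.05 (5.93% and 5.21% over all tested genes) and a median log2 fold change of -0.19. DESeq2 called 2 lower, Smad3 and Tgfb3 (1.71% over all tested genes), and limma voom called 0. Smad3, which carries the TGF-beta signal to the nucleus, stood at 353, 265 and 323 CPM in Control and 175, 183 and 172 CPM in OcKO, without overlap (-0.83 on the log2 scale, SE 0.17, edgeR adjusted p = 0.120). Tgfb3, a ligand of that pathway, stood at 97.8, 125 and 115 CPM and at 75.5, 60.8 and 50.4 CPM (adjusted p = 0.189). Of 7 relatives of the 9 factors, 5 were tested and 0 called by any of the 3 tools, with 1 of 5 higher at an unadjusted p under 0.05 by edgeR (5.93% over all tested genes). That gene was Snai3, with 45.5 ± 10.6 CPM in Control against 82.4 ± 17.5 CPM in OcKO, an edgeR adjusted p of 0.270 (SD, n = 3).

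**Figure D4:**
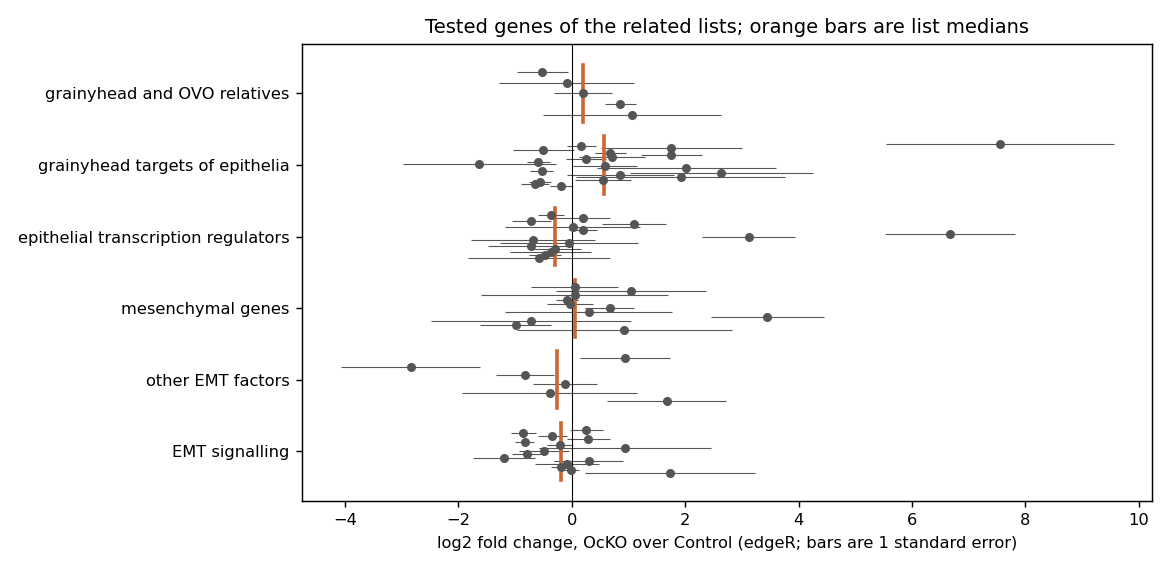
Log2 fold change (horizontal axis, OcKO over Control) of each tested gene in 6 related lists, with bars of 1 standard error and orange bars at the list medians, which run from -0.29 to 0.57. Tjp3 stands furthest to the right, with at most 0.0576 CPM in every Control library.

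Markers of other cells stood far below those of the oocyte, and their part in the values above was not tested. The 12 oocyte markers summed to 34200 to 53100 CPM in Control and 28900 to 38000 CPM in OcKO. The 16 granulosa and cumulus markers summed to 66.5 to 122 CPM in Control and 109 to 125 CPM in OcKO. Of the 12 granulosa markers tested, 9 were above 0 on the log2 fold change scale (median 0.68). The 3 below 0, named after their values were seen, were Cyp19a1, Fshr and Hsd17b1, all with overlap. Their means were 28.2, 2.34 and 3.67 CPM in Control and 22.0, 1.43 and 2.49 CPM in OcKO. Nr5a1 held 0 counts in Control and 1.69, 2.96 and 1.03 CPM in OcKO, and Inha stood at 12.7 ± 2.26 and 26.4 ± 15.2 CPM (SD, n = 3), with overlap. Has2 held 0 counts in Control and 195, 90 and 0 in OcKO, Ptgs2 held 1, 0 and 4 counts and 0, 262 and 89, and Foxl2 held 0 counts in Control and at most 0.0491 CPM in OcKO. The 12 markers of ovarian surface and other epithelium summed to 14.8 to 46.7 CPM in Control and 35.7 to 41.1 CPM in OcKO. Of the 4 tested, 3 were above 0 on that scale (median 1.23). Krt8 stood at 2.99 ± 3.64 CPM in Control against 9.79 ± 5.82 CPM in OcKO, Upk3b at 12.9 ± 6.67 and 21.5 ± 8.34 CPM, and Krt19 at 0 to 0.460 and 0.329 to 1.66 CPM, all with overlap. Muc16 went the other way, at 12.2 ± 18.0 and 5.78 ± 2.66 CPM, also with overlap. Its Control mean rests on replicate 2, with 33.0 CPM. Krt5, Krt14, Upk1b and Msln had 0 counts in all 6 libraries and Krt18 at most 0.0912 CPM. OcKO replicate 1, the highest for Grhl3 and Ovol2, held 122 CPM of granulosa and 41.1 CPM of surface epithelium markers. Theca and stroma markers summed to 48.8 to 91.4 CPM in Control and 56.5 to 94.1 CPM in OcKO, and blood and endothelium markers to 91.3 to 128 and 97.6 to 124 CPM. Positive values were found for 2 of 3 tested theca and stroma markers (median 0.28), 1 of 5 of blood and endothelium (-0.67) and 3 of 12 of the oocyte (-0.15). Cyp17a1, an enzyme of theca cells, held 0 counts in Control and 0.456, 0.637 and 0.760 CPM in OcKO. Dcn, of the same list, went the other way, at 4.39 ± 3.90 and 0.661 ± 0.973 CPM, with overlap. In the 5 marker lists edgeR and limma voom called 0 genes. An unadjusted p under 0.05 by edgeR was reached with higher values by Nr5a1 and Cyp17a1 and with lower values by the oocyte genes Bmp15 and Gdf9, against 5.93% and 5.21% over all tested genes. DESeq2 called Nr5a1 higher and Bmp15 lower.

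The libraries held 36280148 to 44575222 counts. Rpa1, the deleted gene, stood at 140 to 155 CPM in Control and 4.13 to 7.75 CPM in OcKO, which matches the labels.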

How the data were processed

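RNA-seq counts of reads per gene, not normalized, were deposited by the authors for 3 Control and 3 OcKO libraries, in 1 table and in per-sample files that differed in 0 values. Per the submitters' processing notes, Trimmomatic 0.36, STAR 2.5.2b, featureCounts of Subread 1.5.2 and build GRCm38 were used. Not given in the sources used here are the annotation release, strand setting and treatment of shared reads. The kit named in the labels does not mark strand.

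Counts were compared with edgeR 4.0.16 in R 4.3.3 (glmQLFit, glmQLFTest, TMM, filterByExpr), which tested 16060 genes. Calls needed an adjusted p (Benjamini-Hochberg, over all tested genes) under 0.05. SEs were derived from the F statistic, by dividing the size of the log2 fold change by its square root. CPM per kb uses the exon length in the deposited files. DESeq2 1.42.0, limma 3.58.1 (voom), other scalings and filters, a replicate block and leaving out each library were the alternatives. The scripts were tested on simulated data.

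The genes and the 11 lists were chosen with earlier results of these data known. Named are the 9 factors, Rpa1, the nearest and most alike genes, and up to 4 tested genes per list with the smallest p; some of these are not reported here. Genes of the lists that did not pass the filter (Twist1, Foxl2, Has2, Ptgs2, Krt5, Krt14, Upk1b, Msln, Krt18) were named after their values were seen. For counts of 1 to 3 in Control, ratios carry an exact 95% counting interval.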

Additional observations from a re-analysis of the deposited data

How the results depend on the processing

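The number of calls moved with the test and the libraries. In place of 22 genes higher and 1 lower, a minimum of 5 CPM gave 68 and 7, DESeq2 480 and 275, and limma voom 0 higher. The replicate block gave 0 and 0, so Grhl3 was not called with it, nor with limma voom. Mice with the same number did not deviate together (r of -0.045 to -0.037). With 3 libraries per group this cannot settle whether the numbers pair the mice, which the sources used here do not state. Leaving out 1 library gave 0 to 4 higher and 0 to 2 lower. The grainyhead targets had 1 call by DESeq2 and 0 in the other settings. The mesenchymal genes had 0 calls in all 13 alternatives.

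No called member changed sign, but the members were picked with this contrast in view, so nothing is read from that. Signs turned for genes that were not called: without 1 library, log2 fold changes ran from -0.30 to 0.49 for Grhl2, -0.28 to 0.20 for Ovol1, -0.12 to 2.03 for Ovol3, -0.21 to 0.85 for Tfcp2, -1.61 to 1.74 for Muc16, -1.82 to 0.58 for Cd68, -0.79 to 0.09 for Hba-a1 and -2.36 to 0.74 for Kdr. Muc16 gave 0.19 with limma voom and 0.23 with the block, and Kdr 0.79 with the block. Taf1b gave 0.01 with DESeq2, its size factors or a minimum of 5 CPM, 0.15 with library size alone and -0.16 to 0.19 without 1 library. Zfp706 gave 0.08 with library size alone and -0.16 to 0.01 without 1 library. The cause was not tested. At this depth, Grhl3 and Ovol2 in Control lie at or near the limit of counting, as does Zeb2 in Control replicate 1 (3 counts). Snai2 lies there in all libraries but Control replicate 1 (113 counts) and OcKO replicate 2 (19 counts).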
